A study of Mus musculus with 16 samples.

Results

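Oxidative phosphorylation genes of both genomes were followed in mouse CD8+ T cells in which the RNA-binding protein gene Tardbp (TDP-43) had been targeted. The members were the protein-coding genes of GENCODE M21 whose symbols start with Nduf, Uqcr, Cox4 to Cox8, Atp5, mt-Nd, mt-Co, mt-Cy or mt-Atp, together with Sdha, Sdhb, Sdhc and Sdhd. This rule found 107 gene identifiers among 55536 annotated genes, of which 13 lie on the mitochondrial genome and 94 on nuclear chromosomes. The 94 nuclear identifiers carry 93 symbols, because Atp5o is listed under a second identifier with no counts. RNA from 16 libraries had been sequenced, 8 labelled Control gRNA and 8 labelled Tardbp gRNA. The cells of both groups were CD8+ T cells of OT-I transgenic mice (OT-1 Tg C57BL/6J in the labels), whose T cell receptor recognises the ovalbumin peptide SIINFEKL and which, by the study's methods, also lacked a recombination activating gene. They were electroporated with Cas9 and a scrambled (Control) or a Tardbp guide RNA and transferred into C57BL/6J recipients. Both groups then received the antigen SIINFEKL with agonist antibodies to OX40 and 41BB, and were collected from spleen and lymph nodes on day 4 by the labels. The study's methods place the sort short of 4 full days after stimulation. Its results also name a stimulation of the purified cells beside deep RNA sequencing, without saying whether the sequenced cells had it. The age of the animal behind each library is not given in the labels, and an electroporated pool can hold cells that escaped editing.

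Oxidative phosphorylation passes electrons from NADH (complex I) and succinate (complex II) through complexes III and IV to oxygen, and ATP synthase (complex V) uses the proton gradient so made. Complex II is built wholly from nuclear genes, while the other complexes combine subunits of both genomes, so that their assembly needs RNA from the nucleus and from the mitochondrial genome. T cells that proliferate after antigen use this pathway together with glycolysis.

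The mitochondrial genome keeps a few of its genes on shared RNAs. Mt-Atp8 and mt-Atp6 overlap by 43 bases and mt-Nd4l and mt-Nd4 by 7 bases on the mm10 mitochondrial chromosome, in different reading frames. These stretches are shown because counts of the paired genes are read side by side in the results. A read that covers the shared bases (capitals, chrM:7927-7969 and chrM:10167-10173, plus strand) touches both genes. The overlap makes up 21.1% of mt-Atp8 but 2.36% of mt-Nd4l. Reads of 100 bases are longer than either overlap, so these percentages do not measure how many reads the paired genes share.
mt-Atp8, last 80 bases: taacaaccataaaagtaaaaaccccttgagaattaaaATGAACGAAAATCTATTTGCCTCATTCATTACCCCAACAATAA
mt-Nd4l, last 60 bases: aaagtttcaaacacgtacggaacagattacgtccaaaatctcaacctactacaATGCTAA

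The libraries held 56016533 to 94801105 estimated counts in annotated genes. Levels are given as CPM (counts scaled to the same library total, after TMM scaling), and a gene was called where the edgeR quasi-likelihood test gave a Benjamini-Hochberg adjusted p under 0.05 over all 16650 genes tested. The targeted gene itself ran from 172 to 207 CPM under the Control gRNA, and the Tardbp gRNA left 110.4 to 147 CPM, without overlap (edgeR adjusted p = 8.07e-07). These values are of RNA and do not measure the loss of protein. By immunoblot, the study reported that cells given the Tardbp guide made no Tardbp protein. All 8 CD8 T cell markers checked were higher in Tardbp gRNA, at a summed 6635 to 7932 CPM against 9311 to 12174 CPM. Of 6 myeloid markers, 2 were called higher, with sums of 23.8 to 43.6 against 30.8 to 89.0 CPM. The 5 red cell precursor markers summed to 0.415 to 17.4 against 9.02 to 180.0 CPM, with 4 called higher. Sums of the CD4 T cell, natural killer and platelet markers did not pass 3.88 CPM in any library, and those of 4 B cell markers did not pass 18.4 CPM. The deposited RNA concentration, given without a unit, was 34.9 to 197.1 for Control gRNA libraries and only 10.1 to 24.0 for those of Tardbp gRNA. The part of the other cell types' markers in the results was not tested. The concentrations do not overlap between the guides, so that both cannot be told apart, and a fit with concentration as a covariate is given beside the mitochondrial genes. In bulk RNA, a change in RNA per cell and a change in the cells present cannot be told apart either.

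To ask how the pathway's RNA differed between the guides, each genome was read against the whole table. Most nuclear subunits were higher in Tardbp gRNA, while most mitochondrially encoded genes did not pass the test. Of the 94 nuclear identifiers, 87 passed the filter on low counts; 57 of these were higher, 7 were lower and 23 were not called, against 23.5% of all tested genes higher and 23.3% lower. Their median log2 fold change was 0.28, beside 0.046 for all genes tested. For the 8396 protein-coding genes whose log2 CPM averaged 3 or more, members included, the median was -0.054. For 39 nuclear members every Tardbp gRNA library lay above every Control gRNA library, and for 6 every one lay below, against 6.61% and 10.3% of all genes. All 13 mitochondrially encoded genes were tested; 4 were higher, none was lower, and in each of the 13 the groups overlapped. Their median log2 fold change was 0.12.

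**Figure D1:**
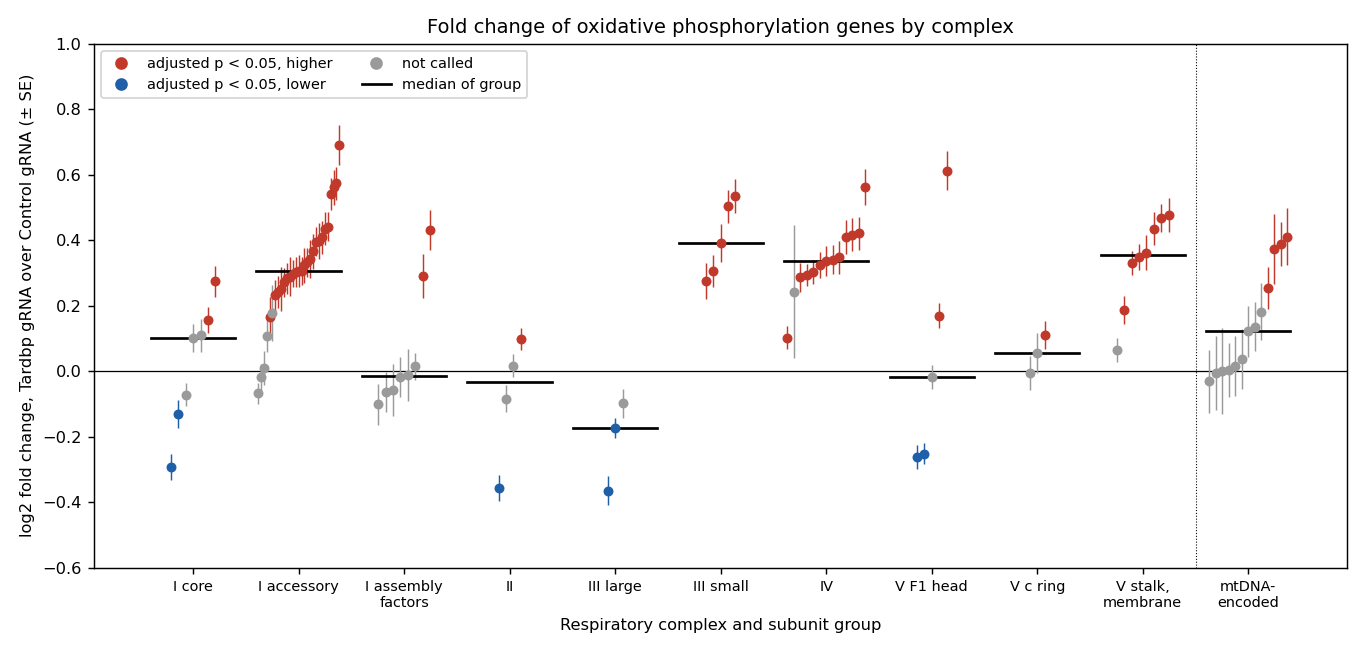
Each point is 1 gene, with its log2 fold change (Tardbp gRNA over Control gRNA) and standard error on the vertical axis and its complex on the horizontal axis. Black bars are group medians, colours give the call, and Cox6b2 and Atp5s, both of low level, are not drawn. Most accessory subunits of complex I, small subunits of complex III, subunits of complex IV and the stalk and membrane subunits of complex V lie above 0, whereas the points called lower lie among the large subunits of complexes I, II and III and the catalytic head of complex V.

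Complex I takes electrons from NADH, and 7 of its nuclear subunits form the catalytic core that holds the flavin and the iron-sulfur clusters. The core did not move in 1 direction: 2 of 7 were higher and 2 lower (28.6% each). These shares are near those of all tested genes, 23.5% higher and 23.3% lower. Ndufs1, the largest core subunit, ran from 221 to 260.3 CPM (median 234) for Control gRNA and from 179 to 206 CPM (median 189) for Tardbp gRNA. The groups did not overlap (log2 fold change -0.29 ± 0.039 (SE), edgeR adjusted p = 7.82e-06). Ndufv1, which binds the flavin, was also lower (-0.13 ± 0.043, adjusted p = 0.0193), with overlapping libraries. Ndufv2, its partner in the NADH-binding module, was higher (0.27 ± 0.047, adjusted p = 1.06e-04), as was Ndufs3 (0.16 ± 0.040, adjusted p = 0.00338). Ndufs7 (0.11 ± 0.050, adjusted p = 0.0833) and Ndufs8 (0.10 ± 0.042, adjusted p = 0.0572) did not pass the test. Exons of Ndufs1 and Ndufs3 overlap genes on the other strand, and in these libraries, whose kit does not mark strand, such reads cannot be told apart.

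The accessory subunits surround this core. Of 29 tested, 24 were higher and none was lower, with a median of 0.31, where 23.5% of all tested genes were higher. Ndufa1, a small membrane subunit needed for assembly, had the largest change of any member above the level floor used for naming (log2 CPM averaging 3 or more). It ran from 95.1 to 111 CPM (median 104) for Control gRNA and from 136 to 195 CPM (median 169) for Tardbp gRNA. Its lowest Tardbp gRNA library lay above the highest Control gRNA library (log2 fold change 0.69 ± 0.060 (SE), edgeR adjusted p = 1.06e-07). Ndufa13, also called GRIM-19 and known for a role in cell death, ran from 159 to 196 CPM (median 175) for Control gRNA and from 232 to 281 CPM (median 265) for Tardbp gRNA (log2 fold change 0.57 ± 0.051 (SE), edgeR adjusted p = 1.27e-07). Exons of Ndufa13 share 375 bases with Tssk6 on the other strand. Ndufa7 (0.56 ± 0.054, adjusted p = 2.30e-07) and Ndufb7 (0.54 ± 0.049, adjusted p = 1.47e-07) followed, each without overlap between the groups. The assembly factors of the Ndufaf family, which help to build complex I but do not stay in it, were mostly not called. Of 8 tested, 2 were higher (Ndufaf3, 0.29, and Ndufaf8, 0.43), near the 23.5% of all tested genes. None was lower, and their median was -0.014.

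Succinate dehydrogenase, complex II, also belongs to the tricarboxylic acid cycle and has no mitochondrially encoded subunit. Sdha, the flavoprotein that oxidises succinate, ran from 699 to 857 CPM (median 754) for Control gRNA and from 551 to 631 CPM (median 595) for Tardbp gRNA. All 8 Tardbp gRNA libraries lay below all 8 of Control gRNA (log2 fold change -0.36 ± 0.040 (SE), edgeR adjusted p = 9.64e-07). Its iron-sulfur partner Sdhb was at 399.7 to 468 CPM and 411 to 460.3 CPM and was not called (0.017 ± 0.036, adjusted p = 0.727), as was the membrane anchor Sdhd (-0.084 ± 0.041, adjusted p = 0.101). The other anchor, Sdhc, was called higher by a small margin (0.098 ± 0.034, adjusted p = 0.0255), and leaving out any of 10 single libraries ended that call.

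Complex III passes electrons from ubiquinol to cytochrome c. Here the 2 directions fell along subunit size, both core proteins lower and the small subunits higher. Uqcrc1, the larger of the core proteins related to mitochondrial processing peptidase, ran from 528 to 612 CPM (median 563) for Control gRNA and from 394 to 491 CPM (median 436) for Tardbp gRNA. These ranges were separate (log2 fold change -0.36 ± 0.044 (SE), edgeR adjusted p = 2.64e-06). Uqcrc2, the other core protein, was lower without overlap (-0.17 ± 0.031, adjusted p = 1.37e-04), and the Rieske iron-sulfur protein gene Uqcrfs1 was not called (-0.098 ± 0.045, adjusted p = 0.081). In contrast, all 5 small subunits were higher, with a median of 0.39, where 23.5% of all tested genes were higher. Uqcrh, the acidic hinge protein that meets cytochrome c, ran from 159 to 195 CPM (median 173) for Control gRNA and from 223 to 280.2 CPM (median 253) for Tardbp gRNA (log2 fold change 0.54 ± 0.051 (SE), edgeR adjusted p = 2.27e-07). Uqcrq was higher by 0.50 ± 0.051, adjusted p = 4.06e-07, again without overlap. Uqcrc2 shares exon bases with Pdzd9 on the other strand, and Uqcrh has 2 named pseudogenes, so their reads are less certain. For members of both genomes, only pseudogenes named after the gene were counted, and copies under other names were not looked for.

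Cytochrome c oxidase, complex IV, reduces oxygen. Its catalytic subunits are mitochondrially encoded, and its nuclear subunits, which regulate and stabilise them, were nearly all higher. Of 14 nuclear genes tested here (Ndufa4, now counted with complex IV, included), 13 were higher and none was lower, with a median of 0.34. The share of all tested genes that were higher was 23.5%. These 14 genes had a median transcript length of 611 bases, and 66.5% of other protein-coding genes of 600 to 800 bases were higher. Cox6c, which has no tissue paralog, ran from 208 to 242 CPM (median 228) for Control gRNA and from 281 to 375 CPM (median 333) for Tardbp gRNA without overlap (log2 fold change 0.56 ± 0.056 (SE), edgeR adjusted p = 3.02e-07).

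Several subunits of complex IV exist as tissue paralogs, and CD8+ T cells used the ubiquitous forms. Cox4i1 (0.29 ± 0.044, adjusted p = 3.28e-05), Cox6a1 (0.30 ± 0.036, adjusted p = 2.16e-06), Cox6b1 (0.42 ± 0.051, adjusted p = 2.56e-06), Cox7a2 (0.34 ± 0.045, adjusted p = 6.06e-06) and Cox8a (0.33 ± 0.040, adjusted p = 2.67e-06) each reached 204 CPM or more in every library, were higher, and did not overlap between the groups. Cox7a2l, a factor of supercomplex assembly, was higher too (0.41 ± 0.052, adjusted p = 4.30e-06), as was Ndufa4 (0.34 ± 0.047, adjusted p = 1.20e-05). Paralogs known from other tissues or states were near the floor: Cox4i2 (lung), Cox6a2 and Cox8b (heart and muscle), Cox8c (testis) and Ndufa4l2 (hypoxia) were not tested, none of them passing 0.363 CPM in any library, and Cox7a1 (heart and muscle) stayed at or below 2.01 CPM (0.24 ± 0.20, adjusted p = 0.347). Of these, Cox8c was at 0 in all 16 libraries, as were Cox7b2 and the second Atp5o identifier, also not tested. Cox6b2, known from testis, was expressed at a low level. It ran from 0.213 to 1.13 CPM (median 0.777) for Control gRNA and from 2.07 to 4.16 CPM (median 2.88) for Tardbp gRNA, the groups did not overlap, and its fold change was the largest of the 100 members tested (log2 fold change 1.92 ± 0.25 (SE), edgeR adjusted p = 6.52e-06), at a level far under that of Cox6b1.

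ATP synthase, complex V, was read by module. Its catalytic head F1, which held both higher and lower genes, is built of the abundant alpha and beta subunits with single copies of gamma, delta and epsilon. Atp5b, the beta subunit that makes ATP, ran from 2807 to 3264 CPM (median 2893) for Control gRNA and from 2324 to 2634 CPM (median 2414) for Tardbp gRNA. All Tardbp gRNA values were under all Control gRNA values (log2 fold change -0.26 ± 0.036 (SE), edgeR adjusted p = 9.02e-06). Atp5a1, the alpha subunit, did the same (-0.25 ± 0.032, adjusted p = 4.32e-06). Atp5c1, the gamma subunit, which has 1 named pseudogene, was not called (-0.018 ± 0.036, adjusted p = 0.71). Atp5d, the delta subunit, was higher (0.17 ± 0.037, adjusted p = 0.00101). Atp5e, the epsilon subunit, moved opposite to alpha and beta: it ran from 149.9 to 181 CPM (median 162) for Control gRNA and from 213 to 287 CPM (median 255) for Tardbp gRNA, without overlap (log2 fold change 0.61 ± 0.060 (SE), edgeR adjusted p = 2.58e-07). Of the 8 stalk and membrane subunits 7 were higher and none was lower, with a median of 0.36, where 23.5% of all tested genes were higher. The c ring that turns in the membrane is made from Atp5g1, Atp5g2 and Atp5g3, which encode the same mature protein. Atp5g1 (0.057 ± 0.061, adjusted p = 0.471) and Atp5g2 (-0.0046 ± 0.053, adjusted p = 0.955) were not called, and Atp5g3 was called at 0.11 ± 0.043, adjusted p = 0.04, a call lost when any of 15 single libraries was left out. Atp5s, coupling factor B, was at 5.70 to 8.15 against 5.43 to 9.13 CPM and not called.

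**Figure D2:**
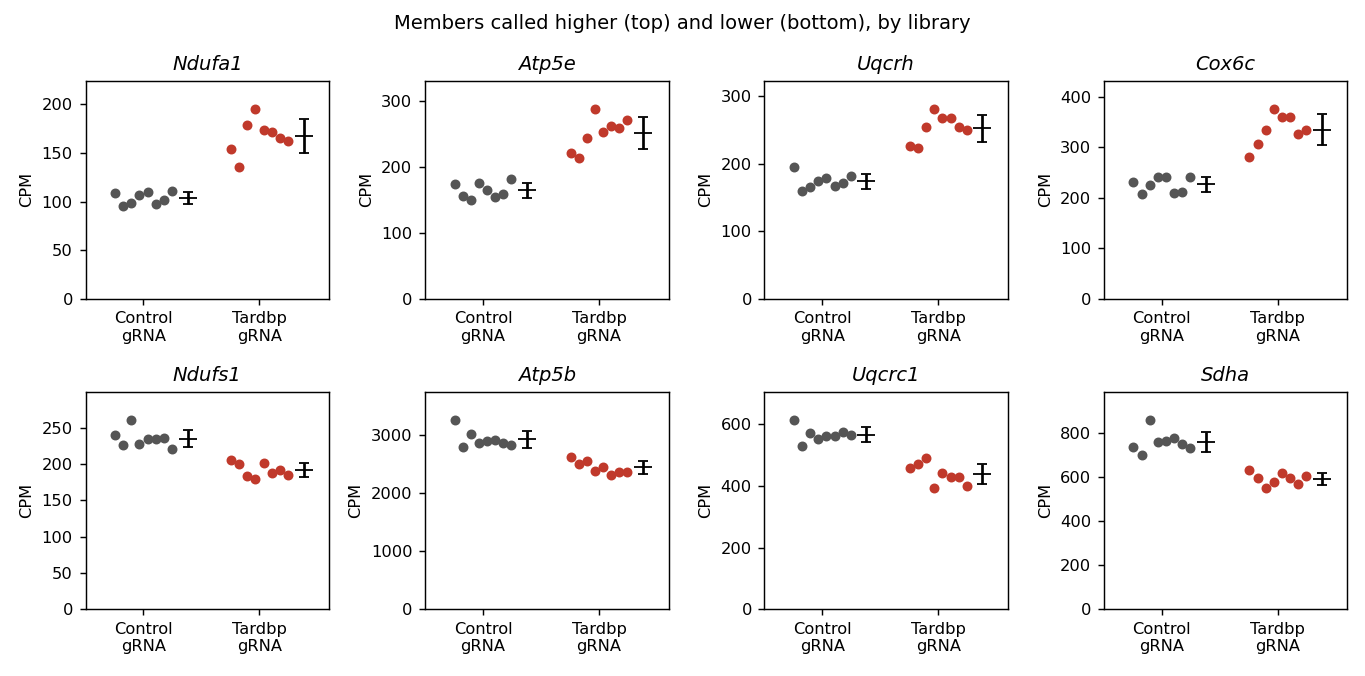
Each point is 1 library, with CPM on a vertical axis that starts at 0, and bars give the mean and SD of 8 libraries. Ndufa1, Atp5e, Uqcrh and Cox6c in the upper row were higher and Ndufs1, Atp5b, Uqcrc1 and Sdha in the lower row were lower, with no overlap between Control gRNA and Tardbp gRNA in any of the 8 panels.

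The mitochondrially encoded genes behaved less evenly. Of the 7 that encode the membrane arm of complex I, mt-Nd4 and mt-Nd6 were higher. Mt-Nd4 ran from 252 to 380.3 CPM (median 279) for Control gRNA and from 244 to 485 CPM (median 372) for Tardbp gRNA (log2 fold change 0.37 ± 0.11 (SE), edgeR adjusted p = 0.00799). Mt-Nd6, the only one of the 13 on the light strand, ran from 93.3 to 126 CPM (median 98.0) for Control gRNA and from 98.5 to 164 CPM (median 141) for Tardbp gRNA (log2 fold change 0.41 ± 0.087 (SE), edgeR adjusted p = 7.78e-04). Its annotation overlaps that of mt-Nd5 by 14 bases on the other strand. The libraries do not mark strand, so any RNA of the heavy strand running across mt-Nd6 is counted with it. The change can therefore not be assigned to the light-strand RNA. The other 5 complex I genes lay close to no change: mt-Nd1 at 0.0033, mt-Nd2 at 0.016, mt-Nd3 at -0.00026, mt-Nd4l at -0.0057 and mt-Nd5 at -0.031, with standard errors from 0.083 to 0.13 and adjusted p values of 0.818 or more. Mt-Nd4l and mt-Nd4 share 1 processed RNA, yet mt-Nd4l was read at 28.3 to 38.7 CPM under the Control gRNA and 19.8 to 42.1 CPM under the Tardbp gRNA while mt-Nd4 was higher. The difference between these fold changes was not tested.

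Both ATP synthase genes of the mitochondrial genome were higher. Mt-Atp6, the channel through which protons reach the c ring, ran from 783 to 979.9 CPM (median 923) for Control gRNA and from 929.6 to 1379.9 CPM (median 1205) for Tardbp gRNA, and 7 of 8 Tardbp gRNA libraries lay above the highest Control gRNA library (log2 fold change 0.39 ± 0.067 (SE), edgeR adjusted p = 1.02e-04). Mt-Atp8, its partner on the same RNA, ran from 149 to 177 CPM (median 165) for Control gRNA and from 150.0 to 225 CPM (median 201) for Tardbp gRNA, with 7 of 8 above likewise (log2 fold change 0.26 ± 0.064 (SE), edgeR adjusted p = 0.00307). Cytochrome b, the only mitochondrially encoded subunit of complex III, was not called (mt-Cytb, 0.12 ± 0.079, adjusted p = 0.217). Nor were the catalytic subunits of complex IV, mt-Co1 (0.14 ± 0.075, adjusted p = 0.148), mt-Co2 (0.18 ± 0.087, adjusted p = 0.0949) and mt-Co3 (0.037 ± 0.092, adjusted p = 0.775), although 13 of 14 nuclear partners were higher.

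Tardbp gRNA replicate 3 stood apart in the mitochondrially encoded RNA. It had the lowest value of the 8 Tardbp gRNA libraries for all 13 genes and lay below every Control gRNA library for 10 of them, while among the 87 nuclear members tested it was the lowest Tardbp gRNA library for 5. Mt-Nd5 was at 302 CPM in this library and at 466 to 596 CPM in the other 7. Its depth was within the range of its group, its RNA concentration was the highest of that group, and its Tardbp level was the lowest of all 16 libraries. Their part in its low mitochondrial RNA was not tested. Without it, 7 mitochondrially encoded genes were higher, mt-Co1, mt-Co2 and mt-Cytb being added, and their median rose to 0.18; the nuclear counts were then 54 higher and 8 lower. With RNA concentration as a covariate, none of the 13 was called, and 44 nuclear members were higher and 4 lower, where 6.07% of all tested genes were higher and 10.1% lower.

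**Figure D3:**
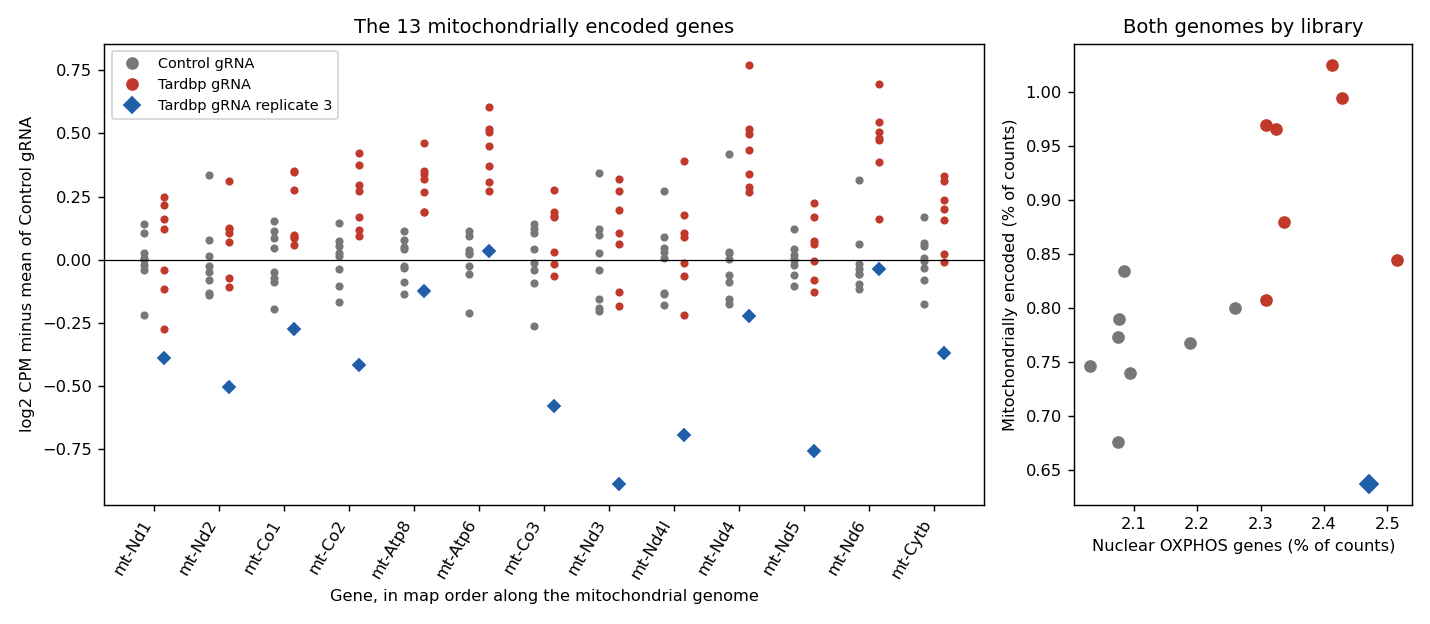
The left panel shows log2 CPM of the 13 mitochondrially encoded genes in map order, relative to the mean of Control gRNA, with 1 point for each library. The right panel sets the share of counts from mitochondrially encoded genes against that from nuclear members, in percent. Replicate 3 of Tardbp gRNA (blue diamond) is the lowest in its group for all 13 genes on the left and lies apart on the right, with a high nuclear and the lowest mitochondrial share.

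Summed over genes, nuclear members took 2.03 to 2.26% (median 2.08%) of counts under the Control gRNA and 2.31 to 2.52% (median 2.37%) under the Tardbp gRNA, and the ranges did not overlap. Mitochondrially encoded members took 0.676 to 0.834% (median 0.77%) and 0.637 to 1.02% (median 0.922%), with overlap. Leaving out replicate 3 put the lowest Tardbp gRNA library at 0.807%, still within the Control gRNA range. The ratio of mitochondrial to nuclear counts was 0.326 to 0.4 (median 0.36) under the Control gRNA and 0.258 to 0.425 (median 0.393) under the Tardbp gRNA, so the ratios overlapped. The mitochondrial ribosomal RNAs, which lie upstream of the protein genes on the heavy-strand transcript, were not called: mt-Rnr1 was at 0.065 ± 0.13, adjusted p = 0.721 and mt-Rnr2 at -0.14 ± 0.12, adjusted p = 0.381. Reverse transcription was primed at poly(A), so only the polyadenylated part of these RNAs was read.

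Levels of different genes were compared as TPM, counts divided by transcript length and scaled to the same library total. In Control gRNA the 13 mitochondrially encoded genes ran from 178 TPM for mt-Nd4l to 2192 TPM for mt-Atp6, with a median of 1248 TPM, and the 87 nuclear members had a median of 353 TPM. The top nuclear level, Atp5b at 2529 TPM, was above that of every mitochondrially encoded gene, followed among nuclear members by Atp5g3 at 1343 TPM. The nuclear genes of complex IV stood at a median of 716 TPM, those of the complex I core at 196 TPM and the Ndufaf assembly factors at 51.0 TPM.

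The split between small and large subunits went along with transcript length, and length went along with fold change across the whole table. The 57 nuclear members called higher had a median transcript length of 661 bases, and the 7 called lower one of 1907 bases, the shortest being 1623 bases. Over the 84 nuclear members whose log2 CPM averaged 3 or more, Spearman's rho between length and log2 fold change was -0.68. Over the 8309 other protein-coding genes above the same level, the 13 mitochondrially encoded genes included, it was -0.34. These are correlations across genes of the same libraries, which are not independent replicates.

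Nuclear members were therefore set beside other protein-coding genes of like length, among which the mitochondrially encoded genes were counted. Up to 600 bases, 22 of 23 members were higher, with a median of 0.39, and 72.9% of 107 other genes were higher, with a median of 0.25. From there to 800 bases the counts were 17 of 22 and 66.5%, with medians of 0.29 and 0.25. At 800 to 1000 bases 7 of 9 members were higher, against 56.25% of 288 other genes, with medians of 0.32 and 0.19. At 1000 to 1500 bases 8 of 16 members were higher, against 42.8% of 905 other genes, with medians of 0.087 and 0.097. At 1500 to 2000 bases 4 of 9 members were lower and 1 higher, against 29.6% and 30.8% of other genes. The medians there were -0.072 and 0.028. At 2000 to 4000 bases 3 of 5 were lower and 1 higher, against 43.2% and 18.3%, with medians of -0.25 and -0.11.

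A fit in which a smooth of each library on transcript length was removed, added after the trend had been seen, left 44 nuclear members higher (background 24.1%) and 19 lower (background 21.8%), with a median of 0.11. All 7 members called lower stayed lower, at -0.42 to -0.18. Of the 57 called higher, 44 stayed higher and 1, Cox5a, became lower (-0.077, after 0.10). Ndufa1 then stood at 0.46, Ndufa13 at 0.47, Atp5e at 0.39 and Cox6c at 0.35, each still called. Among mitochondrially encoded genes 3 stayed higher (mt-Nd4, mt-Nd6 and mt-Atp6), and mt-Atp8, with 204 bases the shortest, moved to -0.028. Whether the length trend arose in the cells or in the libraries was not tested.

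**Figure D4:**
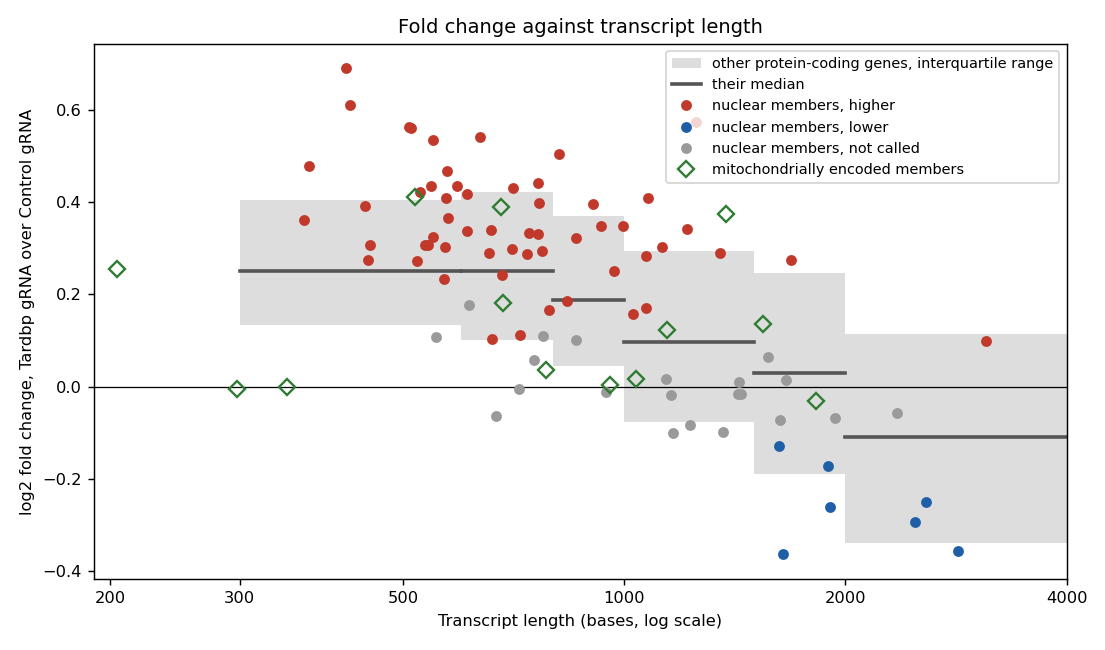
Log2 fold change is plotted against transcript length in bases (log axis). Points are nuclear members whose log2 CPM averaged 3 or more, and diamonds are the 13 mitochondrially encoded genes. Grey bands with dark lines give the interquartile range and median of other protein-coding genes in each length class, the mitochondrially encoded genes among them. Short nuclear members lie mostly above 0 and the 7 called lower lie at 1623 bases or more; the other genes fall with length as well.

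Transcript counts were tested to see which forms of the members changed. Of 336 member transcripts tested, 74 were higher, 54 of them protein-coding, and 7 were lower, against 8.5% and 8.14% of all transcripts. All 7 that were lower are protein-coding, among them Sdha-201 (-0.40), Uqcrc1-201 (-0.41) and Atp5b-201 (-0.31). In Uqcrc1, Sdha and Atp5a1 a minor transcript was called higher although the gene was lower: Uqcrc1-203, annotated as a retained intron, went from a mean of 0.136 to 0.431 CPM (log2 fold change 1.65, adjusted p = 0.005).

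As a share of their gene, 310 member transcripts were tested with limma. Of these, 36 had an unadjusted p under 0.05 and 9 an adjusted one. The share of all transcripts at these cutoffs was not counted, so neither count is set against it. None of the 310 passed both criteria (adjusted p under 0.05 and a difference over 0.1 of the gene), against 0.63% of all transcripts. Ndufa3-205, a retained-intron form of an accessory subunit of complex I, came nearest. It took 11.5 to 15.7% of the gene's counts under the Control gRNA and 21.4 to 23.2% under the Tardbp gRNA, without overlap (mean difference 8.57 percentage points, limma adjusted p = 9.57e-07). Ndufab1-202, a coding form of the mitochondrial acyl carrier protein gene, rose from a mean of 1.34% to 4.29% (adjusted p = 7.31e-04), and Ndufv3-201 fell from 25.7% to 20.8% (adjusted p = 0.0146). These shares come from short reads assigned by a program, so near-identical forms are uncertain.

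Genes that serve the pathway from outside were read from lists, each described by its counts. Of all tested genes, 23.5% were higher and 23.3% lower. Genes for transcription and upkeep of mitochondrial RNA were lower more often than higher, 12 lower and 4 higher of 21 (median -0.27), while no mitochondrially encoded gene was lower. Polrmt, the mitochondrial RNA polymerase, was lower (-0.54 ± 0.071, adjusted p = 5.65e-06), as was Lrpprc, which stabilises the mitochondrial mRNAs (-0.72 ± 0.090, adjusted p = 3.53e-06), and its partner Slirp was not called (0.13 ± 0.070, adjusted p = 0.128). Tfam, which packs mitochondrial DNA and starts its transcription, was not called either (-0.11 ± 0.048, adjusted p = 0.0608). Of 13 tested genes of mitochondrial DNA replication (median -0.15) 6 were lower, among them Dna2 (-1.11), a nuclease also active in the nucleus, and 3 were higher, among them Tk2 (0.64), which supplies mitochondrial nucleotides.

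Among 11 tested regulators of mitochondrial gene expression, 6 were lower and 2 higher (median -0.22). Nrf1, a transcription factor of many nuclear respiratory genes, ran from 133 to 150.0 CPM under the Control gRNA and from 104 to 121 CPM under the Tardbp gRNA, without overlap (log2 fold change -0.37 ± 0.038 (SE), edgeR adjusted p = 3.80e-07). Gabpa, the DNA-binding subunit of the ETS factor also called NRF-2, was lower (-0.28 ± 0.049, adjusted p = 1.46e-04), as was the coactivator Pprc1 (-0.86 ± 0.078, adjusted p = 1.44e-07). Yy1, another factor of these promoters, was higher (0.25 ± 0.083, adjusted p = 0.0172). The tricarboxylic acid cycle, which feeds the chain, had 12 of 16 genes lower and none higher (median -0.31), with citrate synthase Cs at -0.49 ± 0.040, adjusted p = 5.99e-08 and fumarase Fh1 at -0.32 ± 0.036, adjusted p = 1.16e-06.

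Of 18 tested genes for mobile carriers (ubiquinone, cytochrome c) and adenine nucleotide exchange 10 were lower and 2 higher (median -0.14). Vdac1, the outer membrane channel, was at -0.93 ± 0.10, adjusted p = 9.80e-07, and cytochrome c (Cycs) was not called (-0.081 ± 0.061, adjusted p = 0.295). Assembly factors outside the Ndufaf family were divided, 17 higher and 14 lower of 42 (median 0.053). Among them Pet100 (0.82), Uqcc3 (0.64) and Cox20 (0.60) were higher, and Taco1 (-0.86), which activates translation of mt-Co1, and Cox10 (-0.43), an enzyme of heme a synthesis, were lower. Mitochondrial ribosomal proteins lay near the shares of all tested genes (23.5% higher, 23.3% lower), with 21 of 78 higher and 21 lower (median -0.022). With transcript length removed, the counts lower and higher were 12 and 1 for mitochondrial RNA upkeep, 14 and 0 for the tricarboxylic acid cycle, 6 and 3 for DNA replication, 4 and 4 for the regulators, 11 and 2 for carriers, 14 and 12 for assembly factors, and 32 and 14 for the ribosomal proteins. In that fit 21.8% of all tested genes were lower and 24.1% higher. Gabpa was no longer called there (-0.098, adjusted p = 0.0917).

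Since most nuclear members were higher, their promoters were looked at in RefSeq (GRCm38.p6, 250 bases before to 50 after each annotated start). Of 93 nuclear symbols 76 had an entry, with 81 windows. The letters GCATGCGC, core of the NRF-1 site, were found on either strand in 12 of 81 member windows (14.8%) and 2.71% of all 32851 windows. CCGGAAG, which ETS factors bind, was in 18 of 81 (22.2%) and 8.86%. AAGATGGC, the YY1 site, was in 11 of 81 (13.6%) and 2.75%. The ETS letters end and the YY1 letters begin with AAG, so that these matches can run into each other. Windows of members called higher held them in 7 of 53, 14 of 53 and 8 of 53. Of the 4 windows found for members called lower, 1 held the NRF-1 letters and none the other 2 motifs, too few to compare.

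The windows of the 2 highest and the 2 lowest called members with an entry, among those whose log2 CPM averaged 3 or more, are shown, so that both directions can be read, with any of the 3 motifs in capitals. They lie at chrX:37191189-37191488, minus strand (Ndufa1), chr2:174464052-174464351, minus strand (Atp5e), chr9:108936398-108936697, plus strand (Uqcrc1) and chr13:74350191-74350490, minus strand (Sdha). In Atp5e the capitals mark an ETS match on the opposite strand, and in Uqcrc1 NRF-1 matches on both strands that overlap each other; Ndufa1 and Sdha hold none of these letters.
Ndufa1 (higher): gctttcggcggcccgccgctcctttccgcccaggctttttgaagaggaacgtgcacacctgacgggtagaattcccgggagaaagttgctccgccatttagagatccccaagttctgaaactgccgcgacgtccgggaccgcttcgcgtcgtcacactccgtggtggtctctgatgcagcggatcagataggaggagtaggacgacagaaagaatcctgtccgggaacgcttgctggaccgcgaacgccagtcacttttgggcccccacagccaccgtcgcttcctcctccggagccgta
Atp5e (higher): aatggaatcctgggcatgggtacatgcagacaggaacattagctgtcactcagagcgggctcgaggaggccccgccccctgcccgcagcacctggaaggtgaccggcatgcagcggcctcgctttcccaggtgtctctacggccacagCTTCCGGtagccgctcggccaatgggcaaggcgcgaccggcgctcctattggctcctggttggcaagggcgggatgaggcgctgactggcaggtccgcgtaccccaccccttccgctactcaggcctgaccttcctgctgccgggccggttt
Uqcrc1 (lower): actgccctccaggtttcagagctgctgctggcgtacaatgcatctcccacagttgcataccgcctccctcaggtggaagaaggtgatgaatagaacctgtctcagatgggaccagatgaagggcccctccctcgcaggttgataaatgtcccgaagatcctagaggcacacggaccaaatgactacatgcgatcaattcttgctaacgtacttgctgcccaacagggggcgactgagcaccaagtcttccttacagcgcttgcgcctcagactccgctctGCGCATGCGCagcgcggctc
Sdha (lower): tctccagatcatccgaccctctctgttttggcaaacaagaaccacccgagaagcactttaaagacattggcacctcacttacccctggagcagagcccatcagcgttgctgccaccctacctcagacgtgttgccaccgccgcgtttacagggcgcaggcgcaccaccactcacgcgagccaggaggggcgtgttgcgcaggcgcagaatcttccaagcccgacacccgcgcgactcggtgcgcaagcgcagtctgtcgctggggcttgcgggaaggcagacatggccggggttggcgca

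Finally, the change was compared within parts of the series. No member passed an edgeR test of the interaction between guide and the deposited letter M or F (0 of 100 called, 0 at an unadjusted p under 0.05, and 0 of all 16650 genes called). The letters were uneven, 3 M and 5 F in Control gRNA and 5 M and 3 F in Tardbp gRNA. With the letter as a covariate, the result of 47 of the 48 named genes tested stayed the same and 1 became weaker. Libraries numbered 1 to 3 and 4 to 8 were fitted separately, because earlier results of these data had divided them. With 5 libraries a group, 59 nuclear members were higher and 7 lower, and 6 mitochondrially encoded genes were higher, where 19.7% of all genes were higher and 21.1% lower. With 3 a group, 3.3% of all genes were higher and 6.76% lower. There 9 nuclear members were higher, 4 lower and none of the mitochondrially encoded genes was called, and the medians were 0.19 and -0.030. Tardbp gRNA replicate 3, low in mitochondrially encoded RNA, is 1 of these libraries. The Tardbp gRNA libraries there all had the letter M, and Control gRNA libraries 1, 2 and 3 had M, F and F. No member passed the test of the interaction with this division by library number (0 of 100 called by edgeR, 2 at an unadjusted p under 0.05), nor did any of all 16650 genes.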

How the data were processed

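The 16 libraries came from total RNA of sorted T cells, prepared with SMART-Seq v4 (poly(A) priming, no strand mark) and Nextera XT with 12 PCR cycles and reads of 100 bases. The authors aligned reads to mm10 with HISAT2 2.1.0 and made estimated counts per gene and transcript with StringTie 2.1.0, and deposited these expected counts without normalization, all whole numbers. The sequencing facility's read pair counts (29714709 to 48164083) and RNA concentrations are other deposited values. In each of the count tables, 10 columns map to no sample here and were not used, and 26345 lines name no gene (0.0836 to 0.132% of counts) and were left out. The deposited splicing table was not used.

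Genes were filtered with filterByExpr (minimum count 10), scaled with TMM and tested with edgeR 4.0.16 (quasi-likelihood) in R 4.3.3 over all 16 libraries, two-sided, with Benjamini-Hochberg adjustment; the script was tested on simulated data. Transcript shares were tested with limma 3.58.1 and DESeq2 1.42.0 was an alternative. TPM and transcript length used abundance-weighted lengths of GENCODE M21 transcripts. Members, lists, alternatives and the division of libraries by number were chosen with earlier results of these data known; the fit without transcript length and the fits leaving out 1 library were added after seeing the data. Named were all 13 mitochondrially encoded genes, Sdha to Sdhd, the complex I core, the paralog sets, and up to 8 highest and 8 lowest called nuclear members whose log2 CPM averaged 3 or more (7 were lower); other members and list genes singled out were chosen after their values were seen. The values of 1 member that this rule names are not reported here. By the study's account the T cells came from individual recipient mice; the labels do not tie libraries to animals or to separate electroporations, so p-values measure the spread between these libraries.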

Additional observations from a re-analysis of the deposited data

Results flagged for a closer look

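Libraries far from the other 7 of their group by Dixon's test numbered 12 among 102 groups checked, where chance gives about 5.1. Tardbp gRNA replicate 3 was low for mt-Nd5 (302 CPM against 466 to 596 in the other 7), mt-Co2 (409 CPM against 582 to 731 in the other 7) and mt-Co3 (651 CPM against 931 to 1176 in the other 7). Control gRNA replicate 1, which had the highest RNA concentration, was high for mt-Nd2 (267 CPM against 192 to 223 in the other 7), mt-Nd4 (380.3 CPM against 252 to 290.2 in the other 7) and mt-Nd6 (126 CPM against 93.3 to 106 in the other 7). The same library was high for the nuclear members Ndufs7 (207 CPM against 157 to 175 in the other 7), Atp5g3 (676 CPM against 557 to 590.3 in the other 7), Atp5b (3264 CPM against 2807 to 3023 in the other 7) and Uqcrc2 (336 CPM against 294 to 313 in the other 7). Without it Ndufs7 was called higher (0.15), and Atp5b and Uqcrc2 stayed lower. Tardbp gRNA replicate 4 was high for Ndufs3 (131 CPM against 111 to 118 in the other 7) and Atp5g1 (286 CPM against 246 to 263 in the other 7). Genes of 1 library share its RNA and are not independent of one another.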

How the results depend on the processing

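Among nuclear members the count lower moved from 7 to 11 with scaling from nuclear genes alone, to 4 with RNA concentration as a covariate, to 4 in libraries 1 to 3 and to 19 with transcript length removed. The count higher moved from 57 to 9 in libraries 1 to 3, and their median from 0.28 to 0.19 there and to 0.11 with length removed. Among mitochondrially encoded genes the count higher moved from 4 to 0 with RNA concentration and to 0 in libraries 1 to 3; the median moved from 0.12 to 0.016 with RNA concentration and changed sign in libraries 1 to 3 (-0.030) and with length removed (-0.028). Length removal turned the sign of 15 members, 10 of them called in neither fit; of the 5 called in either, those named by rule were mt-Atp8 (-0.028), Sdhb (-0.10) and Atp5g3 (-0.060). Member transcripts called higher moved from 74 to 44 at adjusted p under 0.01. Libraries 1 to 3 hold fewer samples. They include Tardbp gRNA replicate 3, whose mitochondrially encoded genes had a median log2 CPM of -0.39 relative to the Control gRNA mean. Tardbp gRNA replicates 1 and 2 stood at 0.31 and 0.27, and Control gRNA replicates 1, 2 and 3 at 0.14, -0.048 and 0.042. The cause of the other moves was not tested. Leaving out 1 library each gave 53 to 59 nuclear members higher and 7 to 11 lower (11 without Control gRNA replicate 4 or 8 or Tardbp gRNA replicate 1 or 4), medians of 0.24 to 0.30, 4 to 7 mitochondrially encoded genes higher (7 without Tardbp gRNA replicate 3) and medians of 0.064 to 0.18. The replicate block left 55 higher and 7 lower nuclear members, 4 higher mitochondrially encoded genes, and 58 higher and 7 lower transcripts; same-numbered libraries correlated at -0.0048 to 0.16 and 2 of 8 correlated best with their own number, so the numbers were not taken as pairs. Under DESeq2 and RLE scaling none of the 48 named genes tested changed its call. The mean mitochondrial share, 0.765% and 0.89% in Control and Tardbp gRNA, kept its direction under all 5 alternatives tried, and moved to 0.926% in Tardbp gRNA without replicate 3.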
